A study of Mus musculus with 72 samples.

Results

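The genes described here encode the B cell antigen receptor and the proteins that carry its signal: Ighm, Cd79a, Cd79b, Ms4a1, Cd22, Cd72, Blk, Btk and Blnk. They are 9 of 10863 genes that could be tested, and all 9 passed the filters on signal and variation. The members were taken by name from the gene name column of each array, with the brightest detected probe standing for a gene. For 8 of them the name matched directly, and for Ighm (as for Ighd, described later), which the arrays list under a transcript number, the match came from the probe's description. The rule uses no difference between groups. The probe of each gene, however, was picked by its detection, variation and brightness on these same arrays.

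Expression was measured in whole blood of male C57BL/6 mice, irradiated at 8 to 10 weeks of age, with 1 single-colour array for each of 72 mice. Mice received 0.25 or 1 Gy of a neutron beam that also carried a γ-ray component, or 1 or 4 Gy of x-rays, and blood was drawn by cardiac puncture on day 1 or day 7. Additional mice given 0.25 Gy neutrons or 1 Gy x-rays were sampled on day 3. Per the paper, controls were sham-irradiated mice, placed in the holders used for neutron irradiation with the beam off. The paper does not describe how x-ray mice were held, nor any mice of day 3. The 13 groups held 5 or 6 mice each, all blood was fixed in PAXgene solution, and globin RNA was depleted before labelling.

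B cells recognise antigen through a membrane immunoglobulin, whose μ heavy chain is the product of Ighm, bound to the signalling pair CD79A and CD79B. The tails of this pair are phosphorylated by kinases of the SRC family such as BLK. The signal then passes to BTK through the adaptor BLNK, while CD22 and CD72 restrain it and CD20, the product of Ms4a1, is a membrane protein of the same cells. Circulating B lymphocytes are among the blood cells most sensitive to radiation. In whole blood, fewer B cells and less RNA per B cell cannot be told apart. The paper reports total blood counts in the normal range and no significant change in white cell composition or cell death. It gives no count of B cells.

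Probe and promoter sequences come first. A 60-base probe read each gene, and 4 probes are shown as deposited. Values of Cd79a and Btk below rest on their brighter probes, which are not printed, unless the dimmer one is named. The sequences are wholly in capitals because the whole stretch is what the array measures.
Ighm: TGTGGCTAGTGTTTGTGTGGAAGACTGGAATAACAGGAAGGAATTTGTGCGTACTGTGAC
Blk: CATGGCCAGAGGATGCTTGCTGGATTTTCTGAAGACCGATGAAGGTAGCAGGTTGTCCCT
Cd79a, the dimmer of its probes: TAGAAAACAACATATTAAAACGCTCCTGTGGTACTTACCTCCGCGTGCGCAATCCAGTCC
Btk, the dimmer of its probes: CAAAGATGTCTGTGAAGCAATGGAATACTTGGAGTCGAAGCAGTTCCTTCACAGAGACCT
By the array files (mouse build mm9), the Ighm probe lies on the minus strand at chr12:114659630-114659689, the Cd79b probe at chr11:106172780-106172839 and the Ms4a1 probe at chr19:11325367-11325426. The files give no position for the Blk probe, and they place the brighter Cd79a probe at chr12:53180558-53180617 although the RefSeq promoter of Cd79a is on chromosome 7. No annotation of mm9 was used here, so exons are not assigned.

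RefSeq promoters (build GRCm38.p6) were found for 5 of the 9 genes, taken as the 250 bases before the transcription start and searched on both strands. The letters searched were ATGCAAAT (the octamer bound by OCT factors), CCCNNGGG (EBF) and GAGGAAGT (PU.1), and the shorter AGGAAGT, which lies within the PU.1 letters, was added after the first search. The promoters of Blnk, Cd22 and Cd79a are printed as examples, with the motifs they hold in capitals. That of Cd72, which also holds motifs, is not printed.
Blnk (chr19:40994222-40994471, minus strand): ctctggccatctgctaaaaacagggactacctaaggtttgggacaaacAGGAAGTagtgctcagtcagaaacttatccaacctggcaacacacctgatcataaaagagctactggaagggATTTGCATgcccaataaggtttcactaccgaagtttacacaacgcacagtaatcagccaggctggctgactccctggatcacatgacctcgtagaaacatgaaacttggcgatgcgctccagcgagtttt
Cd22 (chr7:30879029-30879278, minus strand): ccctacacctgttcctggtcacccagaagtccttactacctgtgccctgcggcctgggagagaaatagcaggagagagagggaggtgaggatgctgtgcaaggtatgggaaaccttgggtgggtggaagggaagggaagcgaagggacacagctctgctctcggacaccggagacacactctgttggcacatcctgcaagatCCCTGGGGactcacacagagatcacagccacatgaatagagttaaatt
Cd79a (chr7:24897247-24897496, plus strand): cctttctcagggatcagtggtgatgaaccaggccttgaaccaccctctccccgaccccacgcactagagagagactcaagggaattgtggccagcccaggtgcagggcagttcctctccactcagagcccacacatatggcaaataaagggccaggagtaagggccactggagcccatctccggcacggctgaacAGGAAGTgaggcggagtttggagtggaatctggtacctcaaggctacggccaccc
The octamer began 130 bases before the Blnk start, on the opposite strand, and was present in 1.6% of all 32851 promoters. The EBF letters began 48 bases before the Cd22 start and were in 11.8% of promoters. The PU.1 letters were in 2.44% of promoters and, among the 5, in that of Cd72, 49 bases before the start on the opposite strand. The short form AGGAAGT was in 7.69% of promoters and in those of Blnk, Cd72 and Cd79a, and none of the searched letters was in the Btk promoter. These matches describe letters and say nothing of binding.

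Levels are log2 background-corrected signals relative to the median of the detected probes of the same array, so a level of 0 is the array's median, and a difference of 1 is a 2-fold difference. Probes differ in brightness for reasons other than RNA amount, so levels are compared only within a gene. A gene was called when limma gave a two-sided p under 0.001 together with a Benjamini-Hochberg false discovery rate under 5% over all 10863 genes. "Rose" and "fell" are used of called genes only. All members except Blk were well above background on each of the 72 arrays, and Blk was on 60.

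Some facts of the arrays touch every result. No scan date held both an x-ray group and the controls of its day, so date and x-ray exposure cannot be told apart there. Of the mice given 1 Gy neutrons, 4 on day 1 and 1 on day 7 had arrays that shared a date with controls. In the day 7 group given 1 Gy neutrons, arrays were dim: 40.2 to 50.3% of spots were well above background, against 54.3 to 63.9% in its controls. The 7 detected of 16 hepatocyte genes (Alb, Apoa1 and 7 others did not pass the detection filter) had mean log2 levels of 1.04 to 7.28 in day 1 controls and 8.15 to 8.92 after 4 Gy x-rays on day 1, ranges that did not overlap. The 14 T cell genes had mean log2 levels of 1.68 to 2.26 in day 1 controls and -0.26 to 1.28 after 4 Gy, and the 8 red cell genes 2.74 to 3.93 and -1.35 to 0.74. On day 1 the T cell genes stood at 0.56 to 1.79 with 1 Gy neutrons and 2.20 to 2.83 with 1 Gy x-rays, and the red cell genes at 0.05 to 2.58 and 0.38 to 2.13. Against day 1 controls, 10.5% of all genes were called lower with 1 Gy neutrons and 18.6% with 4 Gy x-rays. Among them were 5 and 9 of 14 T cell genes, and 3 and 6 of 8 red cell genes. Their part in the members' values was not tested. In 1 mouse given 0.25 Gy neutrons and sampled on day 1 (replicate 5), all 9 members were low while the hepatocyte genes stood at 9.32, above 2.74 to 6.87 in the other 5 mice of that group.

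**Figure D1:**
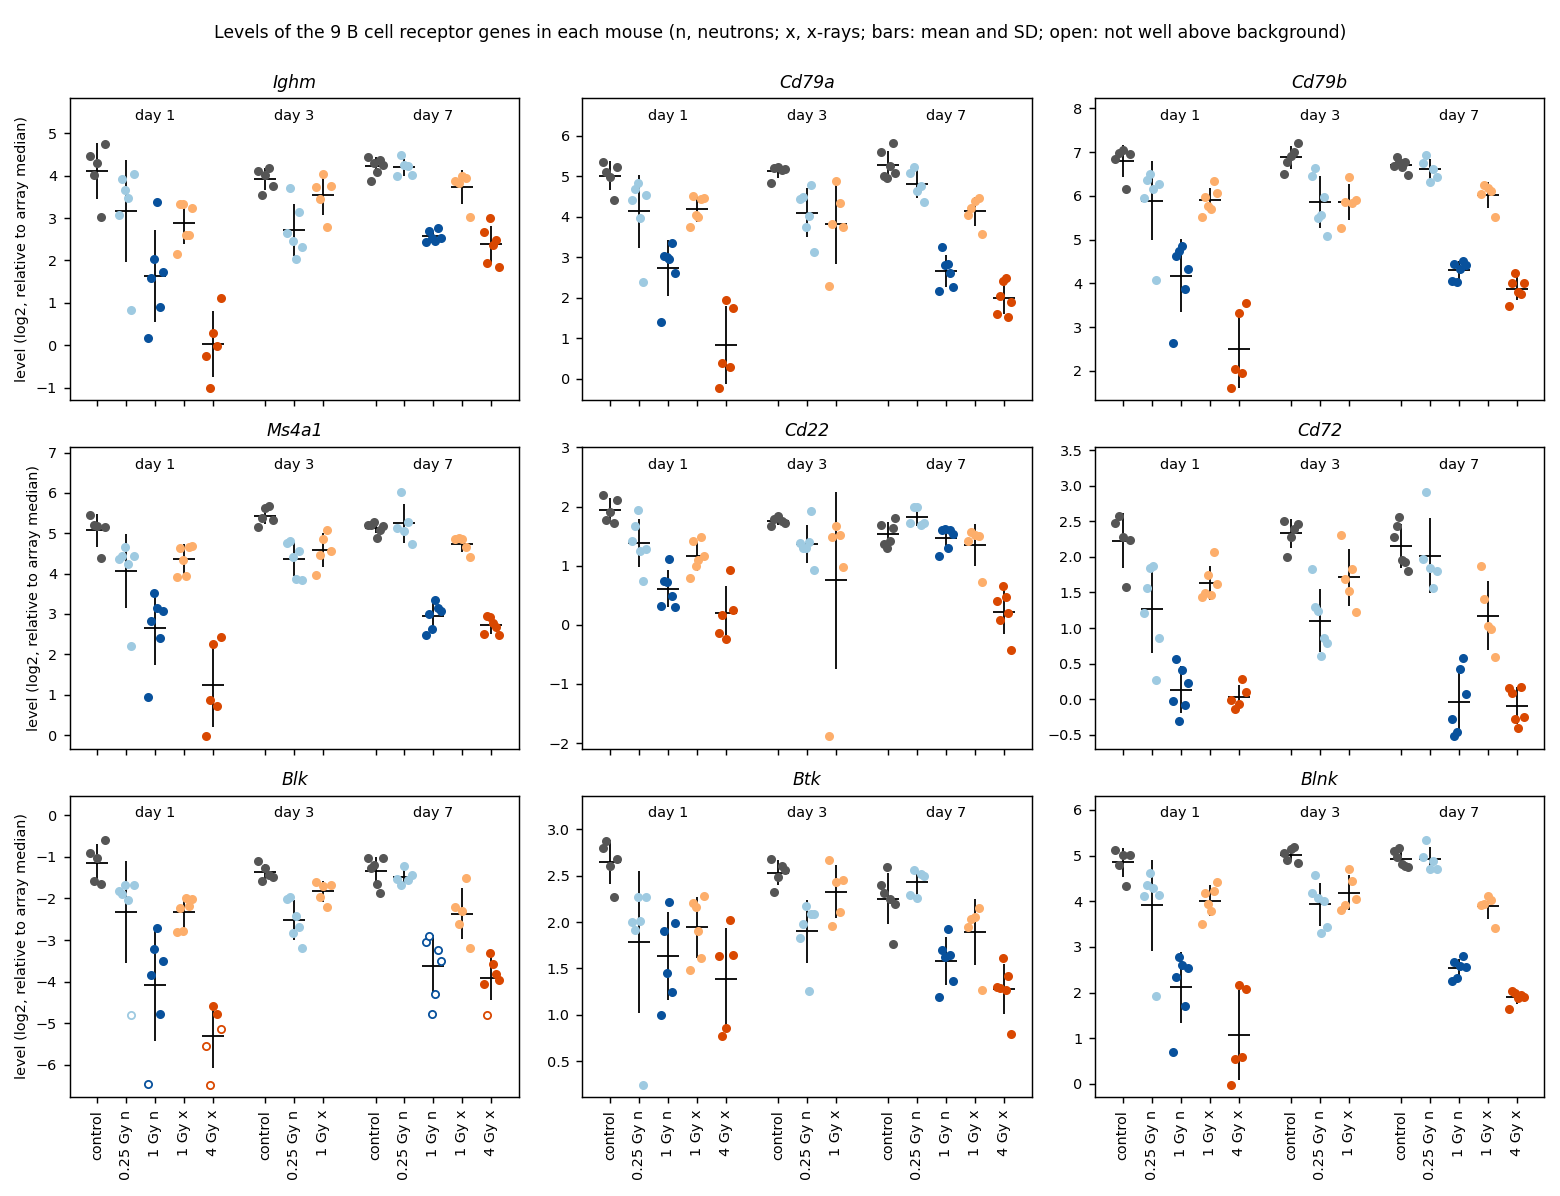
Log2 level relative to the array median (vertical axes) of each of the 9 genes in every mouse, by exposure and day (horizontal axes); each point is 1 mouse and each bar is a group mean. On days 1 and 7 the mice given 1 Gy neutrons or 4 Gy x-rays lie below the controls for most genes, and the Cd22 values of 1 Gy neutrons on day 7 (1.17 to 1.62) overlap those of the controls (1.30 to 1.80).

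In unirradiated mice no member was called between days. This held for the controls of day 7 against day 1 (5.18% of all genes were called in either direction), of day 3 against day 1 (0%) and of day 7 against day 3 (2.34%). At an unadjusted p under 0.05, limma gave 2, 0 and 0 members in these comparisons. Across control groups the mean log2 level of Cd79b was 6.80, 6.88 and 6.71 on days 1, 3 and 7, and that of Ighm was 4.11, 3.92 and 4.21. Means of Cd22 were 1.94, 1.76 and 1.53, the lowest on day 7 (adjusted p = 0.0746 against day 1 in limma).

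Over the 10 comparisons with controls of the same day, 42 of 90 member comparisons were called, and every called one was lower. Every member fell at least once, as did 28.8% of all genes tested. The all-gene share of each comparison is given beside its result below. Of the 90, 87 had a negative log2 fold change. Blnk and Blk fell in 6 of the 10, Cd79a, Cd79b, Ms4a1 and Cd72 in 5, Ighm and Cd22 in 4, and Btk in 2.

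On day 1 most members fell after the higher exposures. After 1 Gy neutrons 8 of 9 members fell (10.5% of all genes were called lower), after 4 Gy x-rays all 9 (18.6%), and after 1 Gy x-rays 3 (4.56%). The median log2 fold change of the members was -2.42, -3.82 and -0.82 in these groups, where the medians over all genes were 0.05, 0.00 and -0.01. In 8, 9 and 2 members every irradiated mouse was below every control mouse, against 13.8%, 23.4% and 5.88% of all genes.

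Of the receptor chains, Ighm, the μ heavy chain, had day 1 control log2 levels of 4.47, 4.00, 4.30, 3.03 and 4.74. After 1 Gy neutrons its levels ran from 0.18 through a median of 1.66 to 3.37, and after 4 Gy x-rays they were -0.24, -0.996, 0.29, -0.02 and 1.13. No 4 Gy mouse reached the controls, and 1 of 6 neutron mice lay above the lowest control. Ighm fell by 2.48 ± 0.49 (SE) after neutrons (limma adjusted p = 0.00265) and by 4.08 ± 0.40 after 4 Gy x-rays (1.57e-05).

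CD79A and CD79B form the signalling pair of the receptor. Cd79a levels were 5.35, 5.10, 4.98, 4.41 and 5.23 in controls, 1.40 to 3.36 (median 2.99) after 1 Gy neutrons and -0.22, 0.39, 1.94, 0.28 and 1.75 after 4 Gy x-rays. Cd79b levels were 6.85, 6.98, 7.04, 6.15 and 6.96 in controls, 2.63 to 4.86 (median 4.48) after neutrons and 1.62, 2.03, 3.32, 1.95 and 3.54 after 4 Gy x-rays. For both genes every irradiated mouse of these groups was below every control. Cd79b fell 6.15-fold after 1 Gy neutrons (log2 fold change -2.62 ± 0.37, limma adjusted p = 0.000539) and 19.7-fold after 4 Gy x-rays (-4.30 ± 0.38, 8.09e-06). Cd79a fell 4.87-fold and 18.2-fold in the same groups (-2.28 ± 0.32 and -4.18 ± 0.40).

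Among the membrane partners, Ms4a1, which encodes CD20, had fold changes near those of the signalling pair. Its control levels were 5.46, 5.20, 5.17, 4.39 and 5.15, against 0.94 to 3.52 (median 2.95) after 1 Gy neutrons and -0.03, 0.87, 2.25, 0.73 and 2.42 after 4 Gy x-rays, with no overlap. Its log2 fold changes were -2.42 ± 0.40 and -3.82 ± 0.44 (limma adjusted p = 0.00115 and 4.05e-05). Log2 fold changes of the inhibitory co-receptors were smaller. Cd22 fell by 1.33 ± 0.19 and 1.75 ± 0.24 (0.000625 and 0.000134), and Cd72 fell by 2.09 ± 0.23 and 2.19 ± 0.22 (0.000112 and 1.87e-05).

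Control levels of Cd22 were 2.19, 1.78, 1.91, 1.72 and 2.11, and of Cd72 2.47, 2.57, 2.28, 1.58 and 2.23. After 1 Gy neutrons Cd22 ran from 0.30 to 1.11 (median 0.60) and Cd72 from -0.31 to 0.57 (median 0.10). After 4 Gy x-rays Cd22 stood at -0.14, 0.16, -0.24, 0.93 and 0.25 and Cd72 at -0.01, -0.14, -0.07, 0.29 and 0.11. All of these irradiated mice were below the lowest control for both genes.

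Inside the cell, the adaptor Blnk had fold changes near those of the receptor pair, and the kinase Btk had smaller ones. Blnk levels were 5.13, 4.78, 5.02, 4.34 and 5.01 in controls, 0.70 to 2.77 (median 2.45) after 1 Gy neutrons and -0.02, 0.55, 2.17, 0.60 and 2.08 after 4 Gy x-rays, without overlap. Blnk fell 6.70-fold after neutrons (log2 fold change -2.74 ± 0.35, limma adjusted p = 0.000265) and 13.7-fold after x-rays (-3.78 ± 0.41, 2.8e-05). Btk levels were 2.80, 2.88, 2.61, 2.27 and 2.68 in controls, 1.00 to 2.22 (median 1.67) after neutrons and 1.63, 0.77, 0.85, 2.03 and 1.65 after 4 Gy. Btk fell by 1.26 ± 0.27 after 4 Gy x-rays (limma adjusted p = 0.00173), a 2.40-fold difference. After 1 Gy neutrons its log2 fold change was -1.01 ± 0.24 with every irradiated mouse below every control, but it missed the limit on the unadjusted p (adjusted p = 0.00637).

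BLK, a kinase of the SRC family, was read by a probe close to background in many irradiated mice. Its log2 levels were -0.91, -1.57, -1.02, -1.66 and -0.60 in controls, -6.46 to -2.71 (median -3.67) after 1 Gy neutrons and -5.56, -6.48, -4.59, -4.77 and -5.15 after 4 Gy x-rays. No irradiated mouse of either group overlapped the controls. Blk fell in both, with log2 fold changes of -2.93 ± 0.56 and -4.16 ± 0.36 (limma adjusted p = 0.0022 and 6.67e-06), with 2 of the 5 arrays of 4 Gy well above background.

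After 1 Gy x-rays on day 1, Cd79b, Cd22 and Blk fell, with log2 fold changes of -0.90 ± 0.21, -0.78 ± 0.17 and -1.18 ± 0.24 (limma adjusted p = 0.0117, 0.00937 and 0.00765). Cd22 levels ran from 0.79 to 1.48 (median 1.13) and Blk levels from -2.81 to -1.99 (median -2.20), all below the lowest control. Cd79b ran from 5.52 to 6.34 (median 5.87), and 1 of 6 mice lay above the lowest control, 6.15. The other 6 members had negative values from -0.59 (Cd72) to -1.24 (Ighm) that were not called, and all 9 had an unadjusted p under 0.05. The count depended on single mice: it was 0 without control replicate 1, 3 or 5, 1 without irradiated replicate 1, 3 or 4, and 7 without control replicate 4. With scan date or slide as a random block it was 0.

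After 0.25 Gy neutrons on day 1 none of the 9 members was called, and 0.00921% of all genes were called in either direction. All 9 log2 fold changes were nevertheless negative, from -0.56 ± 0.23 (Cd22) to -1.17 ± 0.51 (Blk), and 8 had an unadjusted p under 0.05 in limma. Every irradiated mouse was below every control in 1 member, Blk, against 1.96% of all genes. Replicate 5, which stood apart, held the lowest level of every member, such as 0.83 for Ighm where the other mice ranged from 3.07 to 4.03. No member was called without it.

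**Figure D2:**
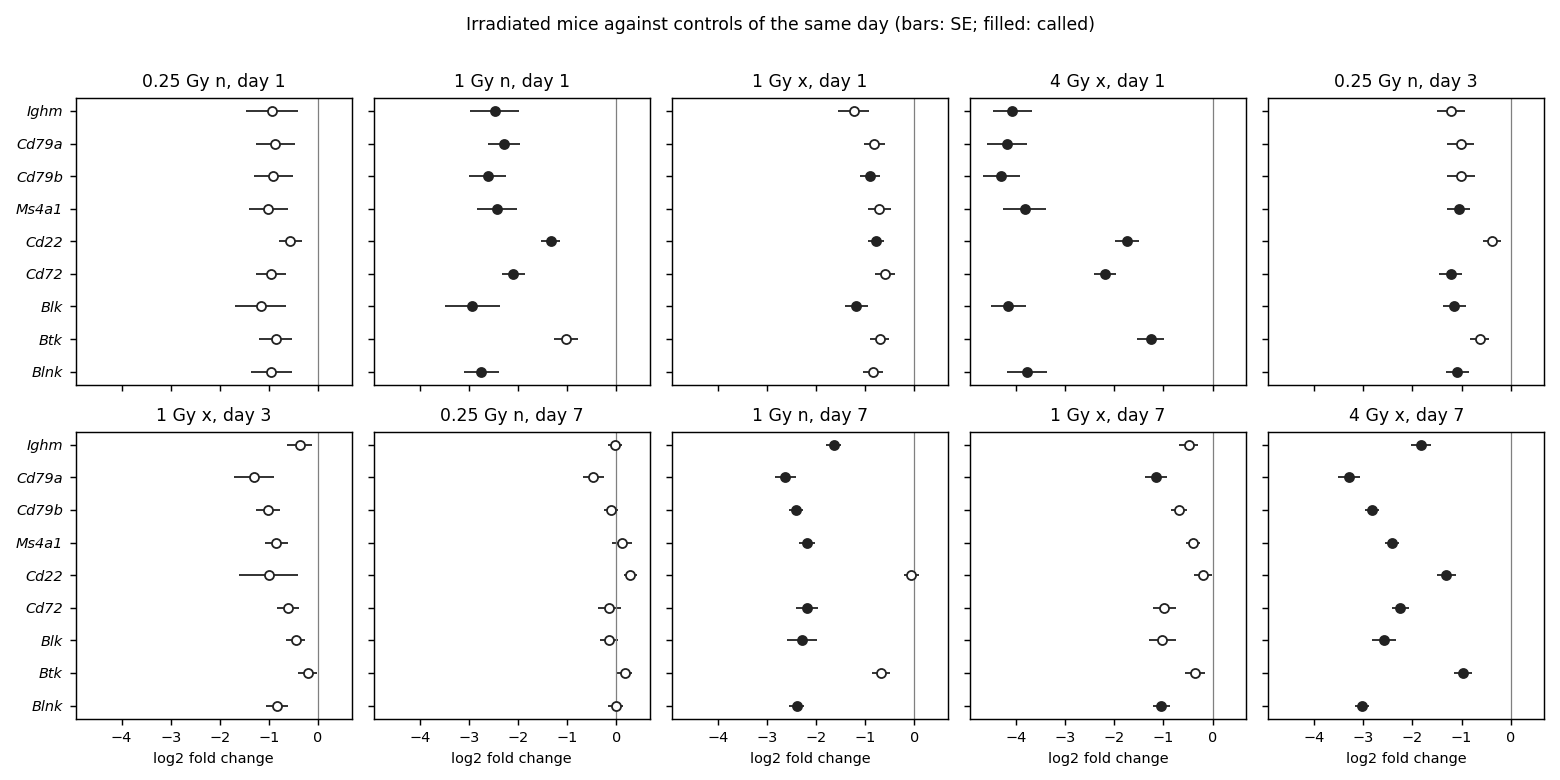
Log2 fold change of each member against controls of the same day (horizontal axes), by exposure and day, with bars of 1 SE; filled points were called. On day 1 all 9 points are filled for 4 Gy x-rays and 8 for 1 Gy neutrons, and on day 7 all 9 and 7.

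On day 7 most members were again lower than in controls after the higher exposures. All 9 fell at 4 Gy of x-rays (8.5% of all genes were called lower) and 7 at 1 Gy of neutrons (13.3%). At 1 Gy of x-rays 2 fell (0.709%), and at 0.25 Gy of neutrons none was called in limma (0.0276% in either direction), with 1 member at an unadjusted p under 0.05. The members' median log2 fold changes were -2.42, -2.19, -0.69 and -0.02, against all-gene medians of -0.04, 0.31, 0.04 and 0.06. Every irradiated mouse was below every control in 9, 7 and 4 members in the first 3 groups, against 8.65%, 13.7% and 2.78% of all genes.

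For the signalling pair on this day, control levels of Cd79a ran from 4.95 to 5.82 (median 5.16), against 2.17 to 3.24 (median 2.71) after 1 Gy neutrons and 1.53 to 2.48 (median 1.97) after 4 Gy x-rays, with no overlap of either with the controls. Cd79a fell 6.17-fold after neutrons (-2.62 ± 0.22, limma adjusted p = 1.09e-06) and 9.76-fold after x-rays (-3.29 ± 0.22, 2.77e-07). Cd79b went from 6.47 to 6.88 (median 6.73) in controls to 4.03 to 4.51 (median 4.37) and 3.48 to 4.23 (median 3.90). Its log2 fold changes were -2.41 ± 0.15 and -2.82 ± 0.15.

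Ighm had smaller log2 fold changes than the signalling pair on this day, a difference between genes that was not tested. Its levels were 3.86 to 4.45 (median 4.27) in controls, 2.45 to 2.76 (median 2.53) after 1 Gy neutrons and 1.85 to 3.00 (median 2.43) after 4 Gy x-rays. All 12 irradiated mice were below all 6 controls. Ighm fell by 1.64 ± 0.15 and 1.83 ± 0.20 on the log2 scale (limma adjusted p = 1.44e-06 and 3.12e-05).

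Blnk ran from 4.74 to 5.16 (median 4.89) in day 7 controls, from 2.26 to 2.80 (median 2.57) after 1 Gy neutrons and from 1.63 to 2.04 (median 1.93) after 4 Gy x-rays. These 3 groups did not overlap at any point. Blnk fell by 2.40 ± 0.15 after neutrons and by 3.03 ± 0.14 after x-rays (limma adjusted p = 3.61e-07 and 1.5e-08). Ms4a1 ran from 4.89 to 5.27 (median 5.18) in controls, from 2.49 to 3.34 (median 3.05) with neutrons and from 2.47 to 2.94 (median 2.73) with x-rays. Cd72 ran from 1.80 to 2.56 (median 2.11), -0.52 to 0.57 (median -0.10) and -0.41 to 0.17 (median -0.08) in the same order. The neutron and x-ray mice overlapped each other in both genes, and neither group overlapped the controls. Ms4a1 fell by 2.19 ± 0.17 and 2.42 ± 0.14, and Cd72 fell by 2.19 ± 0.23 and 2.25 ± 0.18.

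Cd22 was the member nearest its control level after 1 Gy neutrons on day 7. Its levels were 1.30 to 1.80 (median 1.53) in controls, 1.17 to 1.62 (median 1.57) after 1 Gy neutrons, and -0.43 to 0.65 (median 0.30) after 4 Gy x-rays. Of the neutron mice 5 of 6 lay within the control range, while all 4 Gy mice lay below it. Cd22 fell by 1.31 ± 0.19 after 4 Gy x-rays (limma adjusted p = 0.000205), and its log2 fold change after 1 Gy neutrons was -0.06 ± 0.15 (adjusted p = 0.749). Centred on the spike-in controls, that value was -2.11 ± 0.28 and was called (3.54e-06), on a scale where the all-gene median was -2.12.

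Of the kinases, Btk levels were 1.77 to 2.59 (median 2.28) in controls, 1.19 to 1.93 (median 1.63) after 1 Gy neutrons and 0.79 to 1.61 (median 1.29) after 4 Gy x-rays. Btk fell by 0.97 ± 0.18 after 4 Gy x-rays (limma adjusted p = 0.00106). After neutrons its value of -0.68 ± 0.18 was not called (0.00498). Blk fell by 2.58 ± 0.25 after 4 Gy x-rays, whereas in the 6 mice given 1 Gy neutrons its signal was never well above background. Measured against the dimmest detectable signal of those arrays, Blk was at least 3.72-fold lower than in controls (limma adjusted p = 3.82e-05), with measured means of -3.63 against -1.34. Under another background correction (normexp) the log2 difference of Blk was 0.33 ± 0.28 and was not called.

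After 1 Gy x-rays, Cd79a (-1.15 ± 0.22, limma adjusted p = 0.0107) and Blnk (-1.04 ± 0.17, 0.00406) were the members that fell on day 7. Cd79a levels were 4.04, 4.21, 4.39, 4.47 and 3.57, all below the lowest control, 4.95. Blnk levels were 3.93, 3.94, 4.11, 4.03 and 3.41, all below 4.74. Neither call was kept in 1 fit over all arrays or with normexp (-0.99 for Cd79a and -0.82 for Blnk), and the dimmer Cd79a probe was not called (-0.61, limma adjusted p = 0.0753). After 0.25 Gy neutrons the log2 fold changes ran from -0.47 (Cd79a) to 0.29 (Cd22), and no member separated the groups. Cd79b was at 6.74, 6.93, 6.32, 6.61 and 6.42 in these mice and Blnk at 4.96, 5.34, 4.71, 4.89 and 4.71, values on both sides of the control medians.

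On day 7 after 4 Gy x-rays the hepatocyte list stood at -0.99 to 7.43 and in controls at -1.48 to 0.92, so 3 of 6 irradiated mice (-0.99, -0.17 and -0.20) were within the control range. For all 9 members each of these 6 mice was below every control. Arrays of these 2 groups were scanned on separate dates, 1 date each, so scan date and exposure cannot be told apart there. The T cell genes had median levels of 2.07 in controls and 1.82 after 4 Gy. Of these, 1 of 14 was called lower (8.5% of all genes), and their median log2 fold change was -0.05. After 1 Gy neutrons 13.3% of all genes were called lower and 25.1% higher. Of 14 T cell genes 3 were called lower. Of 8 red cell genes 8 were called higher, at 5.62 to 6.76 against 3.01 to 3.74. In the same mice 4 of 7 tested neutrophil genes were called higher and 3 of 6 tested plasma cell genes lower. Mean log2 levels over the 8 detected neutrophil genes were 2.91 to 3.84 against 1.45 to 2.36. Over the 7 detected plasma cell genes they were -0.93 to -0.71 against -0.14 to 0.73. After 4 Gy x-rays 9.06% of all genes were called higher. Among them were 4 of 7 natural killer cell genes (1.20 to 2.17 against 0.73 to 1.75) and 4 of 7 monocyte genes (2.01 to 2.60 against 1.42 to 2.24), ranges that overlapped. Their part in the members' values was not tested.

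On day 3, 4 of 9 members fell after 0.25 Gy neutrons (0.626% of all genes were called lower): Ms4a1, Cd72, Blk and Blnk. Their log2 fold changes were -1.06 ± 0.23, -1.22 ± 0.23, -1.15 ± 0.24 and -1.09 ± 0.23, each with a limma adjusted p of 0.0492. Ms4a1 was at 5.16, 5.38, 5.62, 5.68 and 5.33 in controls and from 3.83 to 4.82 (median 4.49) in irradiated mice. Cd72 was at 2.50, 2.00, 2.28, 2.39 and 2.47 in controls and from 0.60 to 1.83 (median 1.05) in irradiated mice. Blnk was at 5.05, 4.90, 5.13, 5.18 and 4.84 in controls and from 3.31 to 4.57 (median 4.03) in irradiated mice. None of the 3 overlapped. Every irradiated mouse was below every control in 6 members, against 4.18% of all genes. These calls sat at the edge of the threshold: 0 remained without control replicate 1, 3, 4 or 5 or irradiated replicate 3, 4, 5 or 6, and 2 without control replicate 2. With scan date as a block 0 were called, and within the 1 date that held both groups (2 irradiated and 5 control arrays) the differences were -0.34 to -0.76. The hepatocyte list was at 5.16 to 8.34 in these irradiated mice and -0.79 to 6.89 in controls, and its part was not tested.

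After 1 Gy x-rays on day 3 none of the 9 was called (2% of genes in either direction), while 6 had an unadjusted p under 0.05 and all 9 values were negative, from -0.21 (Btk) to -1.31 (Cd79a). In 4 members, namely Cd79b, Ms4a1, Blk and Blnk, every irradiated mouse was below every control, against 2.93% of all genes. Cd79b, for example, was at 6.50, 6.78, 6.91, 7.01 and 7.21 in controls and at 5.26, 5.86, 6.42, 5.84 and 5.91 in irradiated mice, a log2 difference of -1.02 ± 0.24 (limma adjusted p = 0.0542). Cd22 was at 1.49, 1.68, 1.51 and 0.97 in 4 irradiated mice and at -1.89 in replicate 1, against 1.68, 1.80, 1.84, 1.75 and 1.71 in controls. The count was 2 without irradiated replicate 3.

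Whether neutrons and x-rays differed was tested directly within each day. At the same dose of 1 Gy on day 1, 5 of 9 members were lower after neutrons than after x-rays (7.72% of genes were lower): Cd79a (-1.47 ± 0.30), Cd79b (-1.72 ± 0.34), Ms4a1 (-1.71 ± 0.37), Cd72 (-1.502 ± 0.19) and Blnk (-1.90 ± 0.33), with limma adjusted p of 0.00543, 0.00485, 0.00751, 0.000722 and 0.00287. For these 5 genes every neutron mouse was below every x-ray mouse, against 9.88% of all genes. Cd79b, for example, ran from 2.63 to 4.86 after neutrons and from 5.52 to 6.34 after x-rays. With scan date as a block none of the 5 was called, and within the 1 date that held both (2 neutron and 4 x-ray arrays) their differences were -1.17 to -1.86. In this contrast 11 of 14 T cell genes were also lower after neutrons (median log2 difference -1.35), and their part was not tested.

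On day 7 the same contrast had 6 members lower after neutrons (5.67% of genes): Ighm (-1.16 ± 0.20), Cd79a (-1.48 ± 0.24), Cd79b (-1.72 ± 0.19), Ms4a1 (-1.78 ± 0.20), Cd72 (-1.21 ± 0.28) and Blnk (-1.35 ± 0.18). Their limma adjusted p ran from 0.000451 (Cd79b and Ms4a1) to 0.00386 (Cd72). In all 6 every neutron mouse was below every x-ray mouse, against 9.14% of all genes. Cd22 had a difference of 0.13 ± 0.20 (adjusted p = 0.598). Blk was at least 1.83-fold lower after neutrons (0.0142), which was not called.

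Against 4 Gy x-rays on day 1, mice given 1 Gy neutrons had higher values in all 9 members, from 0.10 ± 0.21 (Cd72) to 1.90 ± 0.45 (Cd79a). None was called in limma (0.0552% of genes were, in either direction), and 4 had an unadjusted p under 0.05. On day 7, Cd22 (1.25 ± 0.19, limma adjusted p = 7.63e-05) and Blnk (0.63 ± 0.15, 0.00228) were higher after 1 Gy neutrons than after 4 Gy x-rays, 2 of 9 members where 31% of all genes were higher. Both separated the groups completely, as did 29.3% of all genes in the same direction. Neither was called with normexp (Blnk -0.23), with dim spots set missing or with scan date as a fixed block. The Blnk call was lost on leaving out any of 11 of the 12 mice (all but neutron replicate 1), which left 1 call. Centred on the spike-in controls, all 9 members were instead lower after neutrons, Cd22 by 1.03 and Blnk by 1.65, on a scale where the median of all genes was -2.41. The all-gene median was 0.26 in the median-centred scale.

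**Figure D3:**
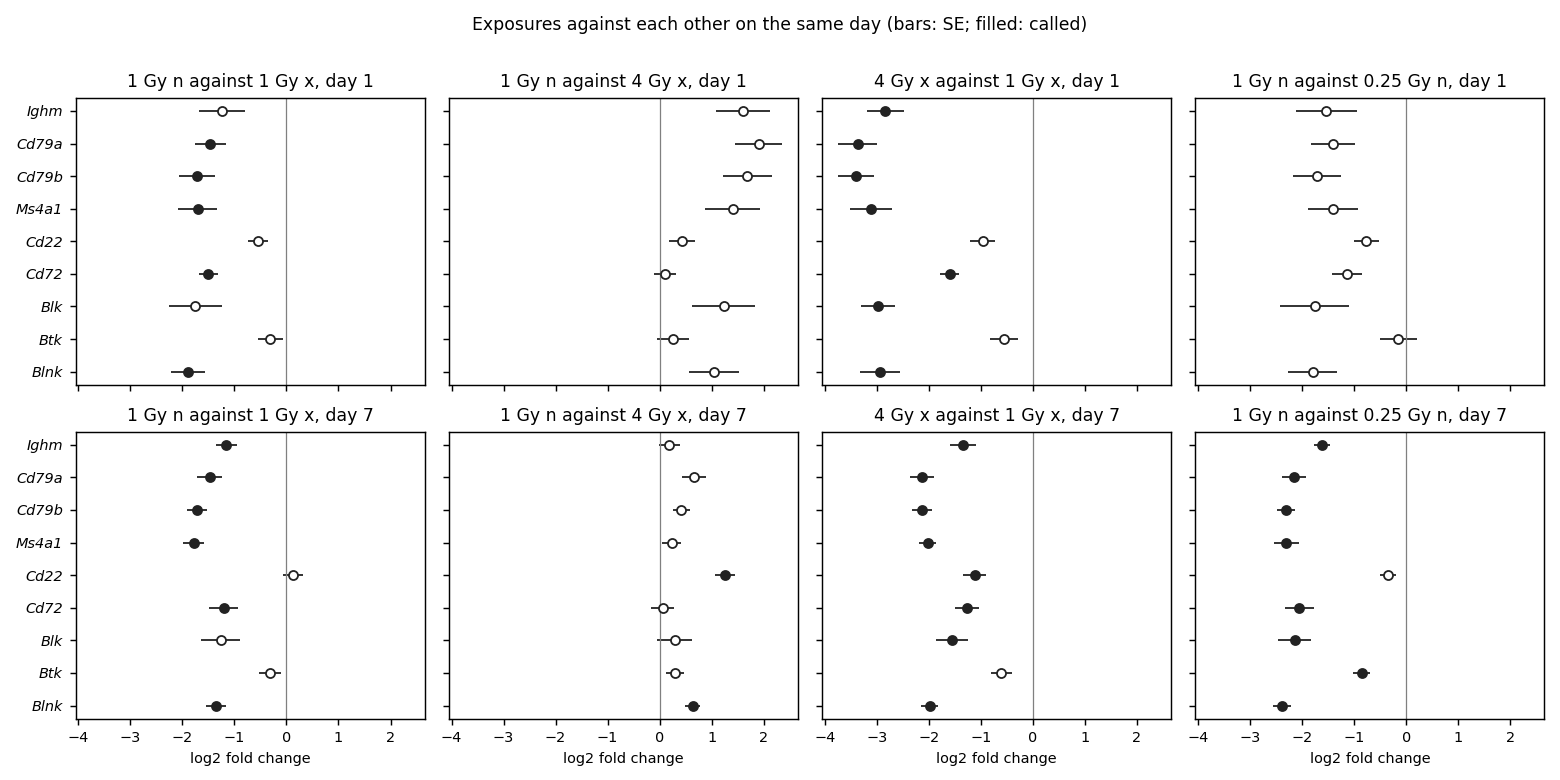
Log2 fold change between exposures of the same day for each member (horizontal axes), with bars of 1 SE; filled points were called, n is neutrons and x is x-rays. Most points of 1 Gy neutrons against 1 Gy x-rays and of 4 against 1 Gy x-rays lie left of 0, and against 4 Gy x-rays on day 7 Cd22 (1.25) and Blnk (0.63) are filled to the right of 0.

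Doses were also compared within each kind of radiation, where dose and scan date were partly mixed. Between 4 and 1 Gy of x-rays, 7 members were lower at 4 Gy on day 1 (13% of genes) and 8 on day 7 (5.54%). On day 1 the differences of the 7 ran from -1.60 ± 0.18 (Cd72) to -3.40 ± 0.35 (Cd79b), and Cd22 (-0.97 ± 0.23, limma adjusted p = 0.00632) and Btk (-0.56 ± 0.27, 0.115) were not called. With normexp the Blk difference was 0.039. On day 1, 11 of 14 T cell genes were lower at 4 Gy as well (median log2 difference -2.31), and their part was not tested. On day 7 those of the 8 ran from -1.12 ± 0.23 (Cd22) to -2.14 ± 0.23 (Cd79a), and Btk (-0.61 ± 0.20, 0.0431) was not called. Centred on the spike-in controls, Cd22 had a day 7 difference of 0.03 and none of the 9 was called. A scan date was shared by 1 array of 4 Gy and 4 of 1 Gy on day 1, and by 6 and 4 on day 7. Within the shared date, differences ran from -0.19 (Btk) to -4.38 (Cd79a) on day 1. On day 7 they ran from -0.55 (Btk) to -2.12 (Cd79b).

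Between 1 and 0.25 Gy of neutrons, 8 members were lower at 1 Gy on day 7 (9.52% of genes), from -0.85 ± 0.16 (Btk) to -2.39 ± 0.17 (Blnk). In all 9 members every 1 Gy mouse was below every 0.25 Gy mouse, against 12.2% of all genes. Blk was at least 3.36-fold lower (limma adjusted p = 0.000139), and Cd22 (-0.35 ± 0.15, 0.07) was not called. On day 1 none was called in limma (1.35% of genes in either direction), although 8 had an unadjusted p under 0.05. Without replicate 5 of the 0.25 Gy mice, 7 were called lower on day 1. A scan date was shared by 4 arrays of 1 Gy and 6 of 0.25 Gy on day 1, and by 1 and 5 on day 7.

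Between the lowest neutron dose and 1 Gy x-rays, day 1 differences ran from -0.37 ± 0.27 (Cd72) to 0.29 ± 0.47 (Ighm). These values include neutron replicate 5, whose mean member level was 0.88. In the other neutron mice of day 1 that mean was 2.75 to 3.18, against 2.19 to 2.88 with x-rays. No member was called on day 1 (4.95% of genes were), day 3 (0%) or day 7 (0%). Unadjusted p values under 0.05 in limma numbered 0, 3 and 9. On day 7 all 9 members were higher after 0.25 Gy neutrons, from 0.46 ± 0.21 (Ighm) to 1.03 ± 0.19 (Blnk, adjusted p = 0.065), and Blnk was called without x-ray replicate 5. That mouse had the lowest level of each member in its group. With normexp the direction turned for 7 of the 9, from -0.56 (Ms4a1) to -0.09 (Blnk), and the members' median was -0.38 in place of 0.59.

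Differences between the day 7 and day 1 effects of an exposure were called in 2 of 36 member comparisons. Cd22 had a day 7 effect above its day 1 effect after 1 Gy neutrons, by 1.27 ± 0.23 (limma adjusted p = 0.000106), where 21.4% of all genes did, and the sign was opposite (-1.27) when arrays were centred on the spike-in controls. This call was also lost in 1 fit over all arrays, with normexp (0.37) and with dim spots set missing. Ighm did so after 4 Gy x-rays, by 2.25 ± 0.45 (0.000517), where 12.4% of genes did, and its call was lost with normexp (1.60). Without irradiated day 1 replicate 3, 4 or 5, irradiated day 7 replicate 2 or control day 1 replicate 4, the latter count was 2 to 4 in place of 1. None was called after 1 Gy x-rays (8.68% of genes in either direction) or 0.25 Gy neutrons (1.32%), with 1 and 3 members at an unadjusted p under 0.05 in limma. The count was 1 after 0.25 Gy neutrons without day 1 replicate 3.

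With 4 Gy x-rays the day differences of the other members ran from -0.05 ± 0.27 (Cd72) to 1.58 ± 0.44 (Blk, limma adjusted p = 0.00619). The fold changes of Cd72 on the 2 days, -2.19 and -2.25, thus differed by less than their error. After 1 Gy neutrons Cd79a and Cd72 had day differences of -0.34 ± 0.40 and -0.09 ± 0.32.

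Averaged over the 9 genes, the mean level per mouse ran from 2.91 to 3.76 in day 1 controls, from 0.08 to 2.00 with 1 Gy neutrons, from 2.19 to 2.88 with 1 Gy x-rays and from -0.33 to 0.86 with 4 Gy x-rays. On day 7 it ran from 3.29 to 3.60 in controls, and from 1.37 to 1.82, 2.15 to 2.93 and 0.92 to 1.47 in the same exposures. None of these irradiated ranges overlapped the controls of its day. With 0.25 Gy neutrons the range was 0.88 to 3.18 on day 1, 2.05 to 2.98 on day 3 (controls 3.37 to 3.62) and 3.20 to 3.75 on day 7, which overlapped the controls on days 1 and 7.

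The 9 genes also varied together between mice. Within groups, the correlation of a pair of members over the 56 arrays of days 1 and 7 ran from 0.25 to 0.96 with a median of 0.58 over 36 pairs. Taken as deviations from the controls of the day it ran from 0.66 to 0.99, Cd79b and Ms4a1 giving 0.99. These points share arrays and exposures, so the correlations are given as a description.

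A list of 50 other genes of the receptor pathway was examined, of which 49 had a probe and 28 could be tested. Lower in at least 1 of the 10 comparisons with controls were 20 of the 28, 2 were higher and 6 (Dapp1, Dok3, Fyn, Itpkb, Lyn and Pik3cd) were in neither. Of all tested genes 28.8% were lower at least once. On day 1, 13 of 28 were lower in mice given 1 Gy neutrons, and 6 and 13 in those given 1 and 4 Gy x-rays, with median log2 fold changes of -0.76, -0.41 and -1.25, where 10.5, 4.56 and 18.6% of all genes were lower. On day 7 these counts were 13, 2 and 12, against 13.3, 0.709 and 8.5% of all genes. After 0.25 Gy neutrons none was called on days 1 and 7 and 1 on day 3, and after 1 Gy x-rays on day 3 there was 1.

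Ighd, the δ heavy chain of naive B cells, fell in 7 of the 10 comparisons. Its mean log2 levels were 4.55 ± 0.50 (SD, n = 5) in day 1 controls, 0.25 ± 0.68 (n = 6) after 1 Gy neutrons and -2.25 ± 0.42 (n = 5) after 4 Gy x-rays. The log2 fold changes were -4.30 ± 0.34 and -6.80 ± 0.29 (limma adjusted p = 3.6e-05 and 3.41e-08), larger in size than that of any of the 9 members in those groups. On day 7 they were -2.01 ± 0.19 and -4.25 ± 0.24, from a control mean of 3.57 ± 0.31.

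The co-receptor complex that amplifies the signal held genes of both directions. Cr2, the complement receptor CD21, fell on day 1 by 3.53 ± 0.30 (1 Gy neutrons) and 5.56 ± 0.21 (4 Gy x-rays). On day 7 it fell by 4.00 ± 0.17 after 4 Gy x-rays, while its value of -1.27 ± 0.31 after 1 Gy neutrons was not called (limma adjusted p = 0.00328). Cd81, the tetraspanin of the complex that many other cells also express, was the exception: it rose on day 1 by 1.19 ± 0.23 with 1 Gy neutrons and by 1.07 ± 0.21 and 1.44 ± 0.23 with 1 and 4 Gy x-rays (limma adjusted p = 0.00247, 0.00672 and 0.000283).

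Other genes of signal transmission were called in fewer comparisons. Bank1, a scaffold of B cell signalling, and Siglecg, an inhibitory lectin, fell in 5 comparisons each, by 3.90 ± 0.29 and 3.67 ± 0.23 after 4 Gy x-rays on day 1. Prkcb, the protein kinase C of the pathway, and Rasgrp3, a RAS activator, fell in 4 each, by 1.94 ± 0.31 and 1.64 ± 0.27 in the same group. Cd38, an ectoenzyme, fell in 4, on day 1 by 1.42 ± 0.32 after 4 Gy x-rays. Itpka, an inositol trisphosphate kinase, rose by 2.13 ± 0.29 after 4 Gy x-rays on day 1 (limma adjusted p = 0.000116).

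**Figure D4:**
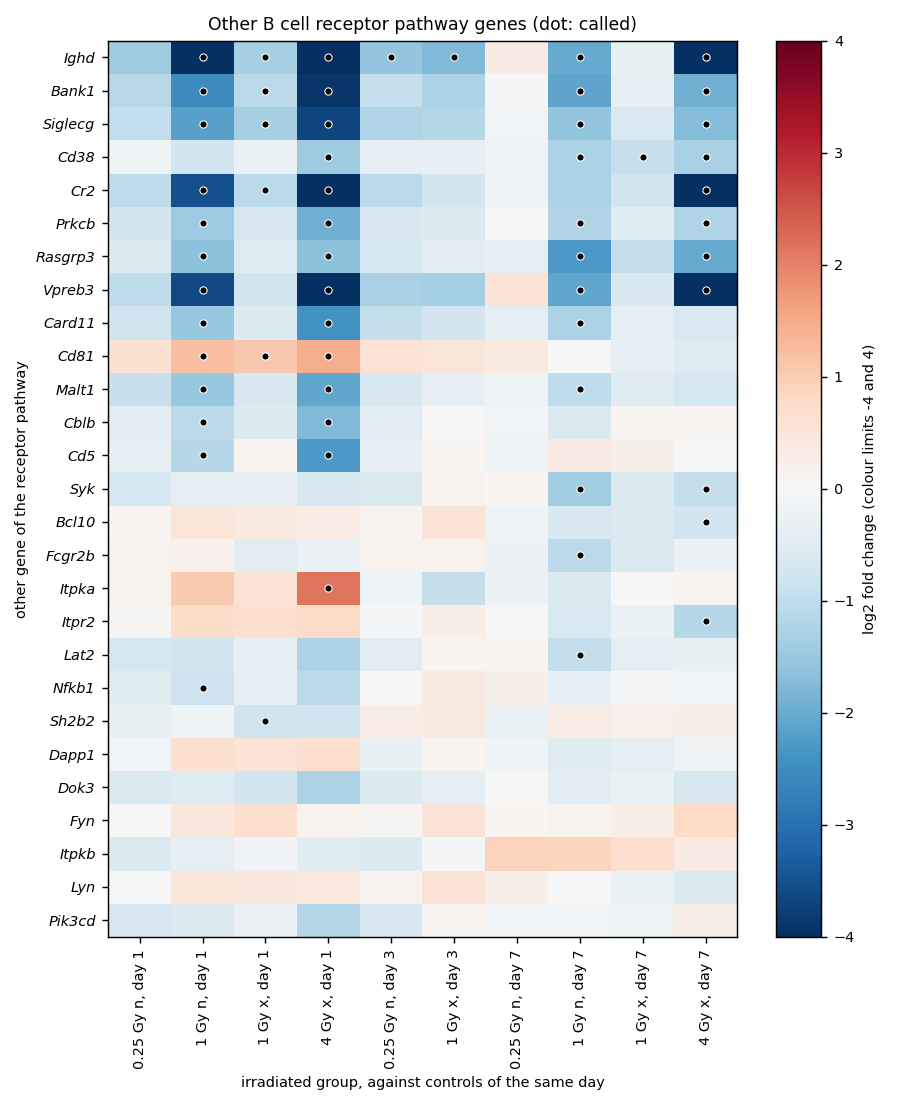
Log2 fold change against controls of the same day (colour, limited to -4 to 4) for tested pathway genes other than the 9 members (rows) in the 10 comparisons (columns); dots mark called genes. Most dots lie in the columns of 1 Gy neutrons and 4 Gy x-rays on days 1 and 7, and the higher values of Cd81 and Itpka are on day 1.

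Of 14 genes of mature B cells, 13 could be tested, some of which, such as Cr2, are also in the pathway list. On day 1, 12 fell with 1 Gy neutrons and 9 and 13 with 1 and 4 Gy x-rays, and on day 7 these counts were 10, 5 and 11, to be read against the same all-gene shares. On day 3 there were 3 lower calls for 0.25 Gy neutrons (0.626% of all genes) and 1 for 1 Gy x-rays (0.414%). Fcer2a, the low-affinity IgE receptor, had the lowest values, -3.87 (1 Gy neutrons) and -6.56 (4 Gy x-rays) on day 1. Its signal was well above background on 3 of the 5 arrays of 4 Gy, so the latter value is imprecise. Pax5 is the 1 listed gene that did not pass the filters.

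Outside these lists, the genes whose deviations from controls followed the mean of the 9 members most closely over 56 arrays were B3gnt5 (r = 0.99), Bfsp2 (0.99), AF138742 (0.99), Fcrla (0.99), Bcl11a (0.98), Iglv1 (0.98) and Srpk3 (0.98). The transcript ENSMUST00000103749 had 0.98 over 55 arrays. These values rank all tested genes by likeness and carry no test.

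Other probes of the same genes differed from the brightest in size and in some calls. The dimmer Cd79a probe printed above had log2 fold changes of -2.84 and -4.82 on day 1 after 1 Gy neutrons and 4 Gy x-rays, and -1.74 and -2.31 on day 7, where the brighter probe had -2.62 and -3.29. It was also called lower after 1 Gy x-rays on day 1 (-1.34) and after 0.25 Gy neutrons on day 3 (-1.27), where the brighter probe was not. After 1 Gy x-rays on day 7 it was not called (-0.61), where the brighter probe was (-1.15). The dimmer Btk probe was called lower after 1 Gy x-rays on day 1 (-0.96) and after 1 Gy neutrons on day 7 (-1.52), unlike the brighter one (-0.68 in the latter). It had -0.84 (not called) and -1.47 (called) on day 1 with 1 Gy neutrons and 4 Gy x-rays, -0.71 (called) on day 7 with 4 Gy x-rays, and 0.14 on day 3 with 1 Gy x-rays, where the brighter probe had -0.21. The second probe of Cd72 overlaps the first and had -2.25 and -2.27 on day 1, and that of Cd22 did not pass the detection filter, with 73.2% of its spots failing.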

How the data were processed

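Whole-blood RNA of 72 mice was hybridised to single-colour Agilent arrays, 1 per mouse. Per the labels, blood was collected into PAXgene tubes and globin transcripts were depleted. The deposited files hold scanner intensities of 44397 spots per array, 1377 of them controls, and the submitters' processing notes name Agilent Feature Extraction 12.0.2, which corrected the background. Per the paper's methods the authors then took log2 values, centred each array on its median and filtered dim, deviant and invariant spots. The deposited table of log2 values from the authors has 72 columns, of which 12 follow their own array and 21 follow an array of another group, so it served only as an alternative for 0.25 Gy neutrons on day 1.

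Here the processed signal was averaged over spots of a probe, set to log2 and centred on each array's median of detected probes. Probes failing on over 25% of spots, or differing from the median by 1.5-fold or more on fewer than 20% of arrays, were left out, and the brightest remaining probe was kept per gene, giving 10863 genes. Symbols were updated through RefSeq accessions for 28330 probes, which changed 1403 names. limma 3.58.1 (R 4.3.3, statmod 1.5.0) compared groups pair by pair with moderated variances, two-sided. A gene was called at an unadjusted p under 0.001 and a false discovery rate under 0.05. In all, 28 comparisons were made: 10 with controls of the day, 11 between exposures, 4 between days and 3 between control groups. The fit was tested on simulated data with known fold changes.

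All 9 members are named. Of the other pathway genes, the 8 called most often against controls are named, ties broken alphabetically, with those called higher after 1 or 4 Gy, and the 8 genes most like the members' mean. One of these pathway genes is counted but not otherwise reported here. The members and lists were chosen with earlier results of these data known. Precision is limited by the 5 or 6 arrays per group. Alternatives covered scaling, background, filters, probe choice, tests, left-out mice and blocks; slide as a random block and values within a shared scan date were chosen after seeing the data. Replicate numbers were not taken as pairs of mice. In no comparison did every same-numbered pair correlate above 0.1, though 5 of 6 did between the neutron doses on day 1. Same-numbered pairs were not compared with other pairs, so this check cannot exclude pairing.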

Additional observations from a re-analysis of the deposited data

Results flagged for a closer look

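Of 117 groups of 5 or 6 levels of a member, 15 held a mouse standing apart from the others by Dixon's gap criterion, where chance gives about 1 in 20, or 5.85. The members share mice and vary together, so these groups are not independent and the counts make no test of an excess. In replicate 5 of 0.25 Gy neutrons on day 1, log2 levels of Blk (-4.80), Blnk (1.92), Btk (0.24), Cd79a (2.40), Cd79b (4.08), Ighm (0.83) and Ms4a1 (2.22) stood below the others, and the same array had the highest hepatocyte list of its group (9.32) and the lowest T cell list (0.42). The part of either in these levels was not tested. In replicate 5 of 1 Gy x-rays on day 7, Blnk (3.41), Btk (1.27), Cd22 (0.72) and Ighm (3.02) stood below.

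Single levels stood low in 4 more mice: Btk (1.25) in replicate 4 of 0.25 Gy neutrons on day 3, Cd22 (-1.89) in replicate 1 of 1 Gy x-rays on day 3, Cd79a (4.83) in replicate 1 of the day 3 controls and Cd79b (6.15) in replicate 4 of the day 1 controls. By a limma test of the difference itself, day 7 and day 1 effects differed for Cd22 after 1 Gy neutrons (1.27) and for Ighm after 4 Gy x-rays (2.25). Different mice were sampled on the 2 days.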

How the results depend on the processing

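Of 252 member values (9 genes in 28 comparisons), the call, and the direction of called values, held for 252 under the random variance test, 243 with centring on the 75th percentile, 238 with quantile normalization, 218 with normexp and 178 with spike-in centring. Among values called in neither setting, the sign changed in 0, 5, 9, 37 and 29. Of 3195 values with 1 mouse left out, 3074 kept the call, 88 lost one, 33 gained one and 0 called values reversed, while 56 uncalled ones changed sign. The causes of the changes were not tested. Depth limits Blk most, with 60 of 72 arrays well above background.

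Members called are given next. Against controls on day 1, 1 Gy x-rays (3) had 8 by false discovery rate alone, 7 with quantile normalization, 5 with the 75th percentile or the mean of probes, and 0 with 1 fit over all arrays, spike-in centring, normexp, or scan date or slide as a random block. On day 7, 1 Gy x-rays (2) had 5 by false discovery rate alone, 8 with spike-ins, 4 with scan date as a random block, 1 with 1 fit and 0 with normexp. On day 3, 0.25 Gy neutrons (4) had 2 with 1 fit or dim spots missing and 0 with spike-ins, normexp, no detection filter, scan date as a fixed block or slide as a random block, and 1 Gy x-rays (0) had 1 with 1 fit or spike-ins, 2 with quantile normalization, 4 with scan date and 3 with slide as a random block. For 0.25 Gy neutrons (0) the count was 2 on day 1 with 1 fit and 3 on day 7 with spike-ins. Control groups (0) had 9 for day 3 against day 1 and 9 for day 7 against day 3 with spike-ins.

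Between exposures, 1 Gy neutrons against 1 Gy x-rays on day 1 (5) had 0 with spike-ins, normexp or scan date as a fixed block, and 1 Gy neutrons against 4 Gy x-rays on day 1 (0) had 4 with 1 fit and 3 with slide. On day 7 the latter (2) had 4 by false discovery rate alone, 9 with spike-ins, 1 with 1 fit, the 75th percentile, quantile normalization or slide, and 0 with normexp, dim spots missing or scan date as a fixed block. The neutron doses on day 1 (0) had 7 with 1 fit, 4 with slide and 1 with dim spots missing, and on day 7 (8) 5 with normexp. The x-ray doses on day 7 (8) had 5 with normexp and 0 with spike-ins. For 0.25 Gy neutrons against 1 Gy x-rays on day 7 (0) the count was 1 with normexp or no variation filter. Day differences of 1 Gy neutrons (1) had 6 with spike-ins and 0 with 1 fit, normexp or dim spots missing, those of 1 Gy x-rays (0) had 1 with spike-ins, and those of 4 Gy x-rays (1) had 4 by false discovery rate alone, 3 with the 75th percentile or quantile normalization, 2 with dim spots missing or the mean of probes and 0 with normexp.

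Whether replicate numbers pair the mice is not known. With the replicate number as a block, counts were 5 after 1 Gy neutrons on day 1 (8), 0 after 1 Gy x-rays on day 1, 1 after 1 Gy x-rays on day 7, 0 after 0.25 Gy neutrons on day 3, 2 between neutron doses on day 1 and 1 for 1 Gy neutrons against 4 Gy x-rays on day 7. It moved no other count of members by over 1.5 times.

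Called values that reversed did so under spike-in centring, which moved the all-gene median by up to -2.75, or normexp. For 1 Gy neutrons against 4 Gy x-rays on day 7 spike-ins gave Cd79a -1.62, Cd79b -1.86, Ms4a1 -2.05, Cd22 -1.03, Blnk -1.65, Btk -1.98, Blk -1.99, Ighm -2.10 and Cd72 -2.22, while the members' median relative to all genes was 0.42. For day differences after 1 Gy neutrons they gave Cd79b -2.32, Ms4a1 -2.30, Cd22 -1.27, Blnk -2.19 and Btk -2.20, with a relative median of 0.45. Controls of day 3 against day 1 gave Cd22 1.59, Btk 1.66, Blk 1.56 and Ighm 1.59, with a relative median of 0.08, and those of day 7 against day 3 gave Cd79a -1.49, Blk -1.62 and Ighm -1.36, with one of -0.18. Cd22 between x-ray doses on day 7 was 0.027. Normexp gave Blk 0.33 for 1 Gy neutrons on day 7 and 0.039 between x-ray doses on day 1, and Blnk -0.23 for 1 Gy neutrons against 4 Gy x-rays on day 7.

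With 1 mouse left out, counts on day 1 ranged from 7 to 9 after 1 Gy neutrons, 0 to 7 after 1 Gy x-rays and 8 to 9 after 4 Gy x-rays. On day 7 they ranged from 7 to 8, 2 to 3 and 9 to 9, and on day 3 from 0 to 6 after 0.25 Gy neutrons and 0 to 2 after 1 Gy x-rays. The count for 0.25 Gy neutrons was 0 on days 1 and 7 throughout. Between exposures they were 4 to 6 and 5 to 6 (1 Gy neutrons and x-rays, days 1 and 7), 0 to 0 and 1 to 2 (neutrons against 4 Gy), 7 to 8 and 7 to 9 (x-ray doses), 0 to 7 and 8 to 8 (neutron doses) and 0 to 1 (0.25 Gy neutrons against 1 Gy x-rays on day 7). Day differences ranged from 0 to 1 after 0.25 Gy neutrons, 1 to 1 after 1 Gy neutrons and 1 to 4 after 4 Gy x-rays, and other counts stayed at 0. Mice whose removal moved a count by over 1.5 times are named beside that result.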
